A study of Mus musculus with 2 samples.

Results

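The 7 genes Meg3, Rian, Mirg, H19, Dlk1, Peg3 and Cdkn1c are imprinted genes with known roles in growth control. They were matched by symbol among the 32285 genes of the count tables, and all 7 were present. Genomic imprinting silences 1 parental copy of a gene, so that each cell uses the copy from the mother or the copy from the father. Maternally expressed genes of this kind tend to restrain growth and paternally expressed ones tend to promote it. Several of them are active in the embryo, fall silent in most adult tissues and return in regenerating muscle.

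The nuclei came from the tibialis anterior, the shin muscle that lifts the foot, in male mice of 16 to 20 weeks, and were profiled by single-nucleus RNA sequencing. All mice had chronic kidney disease and were sampled 5 days after ligation of the femoral artery, so the data hold no uninjured muscle and no mouse without kidney disease. Of the 2 libraries, 1 was labelled AHRfl/fl, with an Ahr gene (the aryl hydrocarbon receptor) flanked by recombination sites. The other was labelled AHRmKO, the muscle knockout of Ahr. The strain field of both gives the same cross of the floxed line AHRtm3.1Bra/J with Tg(ACTA1-cre/Esr1*)2Kesr/J, in which a skeletal actin promoter drives a Cre recombinase fused to a modified oestrogen receptor. That promoter is active in muscle fibres and not in satellite cells, and the labels state neither an inducing treatment nor the number of animals pooled. With 1 library per group there is no replicate check, and nuclei are not replicates, so no p-value is given. Intervals are exact 95% intervals that cover counting error only.

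Depth is counted in UMIs (unique molecular identifiers, each marking 1 captured RNA molecule). The AHRfl/fl library had 151788328 UMIs in all and 15964 nuclei, at a median depth of 3689. The AHRmKO library had 113737134 UMIs and 7529 nuclei, at a median depth of 3601. Levels are given as CPM, the UMIs of a gene per 1000000 UMIs summed over a class of nuclei. The 2 libraries shared 43 barcodes of 2000 or more UMIs, 0.477% of the smaller set. Ahr itself stood at 43.9 CPM in satellite nuclei labelled AHRfl/fl and 51.7 in those labelled AHRmKO, at 38.5 and 42.1 in regenerating nuclei, at 24 and 17.4 in myocytes, and at 9 UMIs in the adult fibre nuclei of each library. Counts from the 3′ end need not cover the deleted part, so they check neither label.

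Nuclei were clustered per library without the 7 genes and named from marker lists. Satellite-like nuclei (Pax7, Myf5), the stem cells of muscle, numbered 2389 in the AHRfl/fl library and 1412 in the AHRmKO library. Myocyte-like nuclei (Myog, Mymk), from differentiating and fusing cells, numbered 1966 and 1195. Regenerating-like nuclei (Myh3, Myh8), from newly formed fibres, numbered 2106 and 1029. Each of the 4 regenerating clusters also met 6 of 8 adult fibre markers, and 1 of them, of 1095 AHRfl/fl nuclei, met only 5 regenerating ones. The naming rule has a part in this. A cluster with at least 5 markers of both myocytes and regenerating fibres was named regenerating only with at least 5 adult fibre markers. Adult fibre-like nuclei (Myh4, Pvalb) numbered 388 and 574. Satellite nuclei were further split into cycling and non-cycling clusters. Myocyte nuclei were split into an early cluster, which met at least 5 of 8 satellite markers, and a fusing cluster, which met fewer of them. Myocyte and regenerating classes shared markers. The fusing clusters met 7 (AHRfl/fl) and 8 (AHRmKO) of 8 regenerating markers, and the AHRmKO early cluster met 7. The AHRmKO regenerating clusters met 7 and 8 of 8 myocyte markers. Mymk stood at 255 CPM in myocytes and 189 in regenerating nuclei of the AHRfl/fl library, and at 193 and 197 in the AHRmKO library. The fusing cluster of the AHRmKO library had 3 markers of regenerating fibres (Tnnt2, Myh3, Actc1) and 0 myocyte markers among its 10 leading genes, so values of myocytes are compared between libraries by cluster. A cluster of 608 nuclei in the AHRfl/fl library, 3.81% of its nuclei, was left unnamed. Its median of 7217 UMIs was 1.96 times that of the library, and it held 5 of 8 satellite markers and 4 of 8 macrophage markers. The limit that left it out, 1.75 times the library median, was lowered after a first pass of these results had been seen, and counts with the cluster kept are given beside those it changed.

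Meg3, Rian and Mirg are noncoding RNAs transcribed from the maternal chromosome of the Dlk1-Dio3 domain on mouse chromosome 12. In build GRCm38, with GENCODE M21 annotation, Meg3 spans chr12:109541001-109571726, Rian chr12:109603940-109661716 and Mirg chr12:109729764-109749460, all on the plus strand. They host microRNAs: 3 mature microRNAs in RefSeq lie within Meg3, 6 within Rian and 26 within Mirg, with 25 distinct seeds among the last. Only miR-453 and miR-496a-5p of Mirg share a seed, and they are shown for that reason with the seed (bases 2 to 8) in capitals.
mmu-miR-453: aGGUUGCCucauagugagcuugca
mmu-miR-496a-5p: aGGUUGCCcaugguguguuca

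H19, a maternally expressed noncoding RNA at chr7:142575529-142578143 on the minus strand, hosts the pair miR-675-5p and miR-675-3p, shown here as the known small RNA products of H19. The microRNAs themselves were not measured.
mmu-miR-675-5p: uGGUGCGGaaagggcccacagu
mmu-miR-675-3p: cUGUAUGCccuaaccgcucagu

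Promoter windows of 300 bases from RefSeq (build GRCm38.p6) were searched on both strands for the cAMP response element TGACGTCA, which is its own reverse complement. It was found in 1 of the 2 windows of Meg3 and in the window of Peg3, and in 1.79% of 32851 windows of all genes. No match lay in the windows of Rian, Mirg or Dlk1. The Mirg window, chr12:109734731-109735030, lies within the Mirg span given above and not at its start. H19 and Cdkn1c had no window and were not searched. Below, 48 bases around each match are shown 5′ to 3′ on the strand of the gene, with the element in capitals. The Meg3 stretch, chr12:109540919-109540966 on the plus strand, places it 57 bases before the start site. The Peg3 stretch, chr7:6730570-6730617 on the minus strand, places it 178 bases before the start site.
Meg3: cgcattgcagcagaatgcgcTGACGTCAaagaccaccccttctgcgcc
Peg3: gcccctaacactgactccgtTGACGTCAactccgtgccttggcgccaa

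Meg3, a noncoding RNA with growth-restraining activity, was low in myocytes and high in regenerating nuclei of both libraries. In the AHRfl/fl library it stood at 153 CPM in satellite nuclei, 62.2 in myocytes, 591 in regenerating nuclei and 22.0 in adult fibre nuclei. The same classes of the AHRmKO library stood at 126, 48.1, 595 and 28.6. Regenerating nuclei were thus the highest of the 4 myogenic classes in each library, and adult fibre nuclei the lowest. Meg3 was higher still in fibroadipogenic nuclei, the connective tissue progenitors, at 1366 and 2216 CPM. In macrophage nuclei, taken as a guide to free RNA in the droplets, it was 11.2 and 18.0. Free Meg3 in nuclei was also estimated from barcodes below the minimum for nuclei. The estimates were 52.8 and 33.3 CPM from barcodes of at most 100 UMIs and 7.2 and 20.2 from those of 200 to under 500. Which of these levels applies was not settled.

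The low point lay in the early myocyte cluster in the AHRfl/fl library, at 33.3 CPM, against 221 in non-cycling satellite nuclei and 84.1 in the fusing cluster. In the AHRmKO library the early and fusing clusters held 48.5 and 47.5, against 160 in non-cycling satellite nuclei. Cycling satellite nuclei, at 87.7 and 108, were below the non-cycling ones in both libraries, but in the AHRmKO library this rested on 1 of 2 cycling clusters. That cluster of 402 nuclei held Meg3 at 66.4 CPM, and the other, of 411 nuclei, held 147. The first met 6 of 8 myocyte markers, as many as satellite markers, and had 4 markers of cycling cells and 0 of satellite cells among its 10 leading genes. The satellite ratios of the comparisons below are also given without it. The log2 ratio of cycling over non-cycling was -1.33 (interval -1.49 to -1.18) in the AHRfl/fl library and, with both cycling clusters, -0.56 (-0.75 to -0.37) in the AHRmKO library.

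A minority of regenerating nuclei carried the Meg3 signal. It was found in 530 of 2106 regenerating nuclei of the AHRfl/fl library, 25.2%, with a median of 5 UMIs, a mean of 14.0 and a maximum of 220 in those nuclei. Of the AHRmKO regenerating nuclei, 272 of 1029 regenerating nuclei held it, 26.4%, with a median of 4, a mean of 12.4 and a maximum of 202. After every nucleus was thinned to 2000 UMIs the shares were 18.6% and 20.7%, against 2.0% and 3.4% in macrophage nuclei. The median depths were 5450 and 4567 UMIs in regenerating nuclei and 2887 and 3273 in macrophage nuclei. In fibroadipogenic nuclei, by contrast, 82.9% and 82.4% of nuclei held Meg3 before thinning and 72.9% and 74.1% after it, with means of 8.2 and 12.7 UMIs.

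Markers of fibroadipogenic cells were low in regenerating nuclei with Meg3 beside fibroadipogenic nuclei themselves. The 8 markers summed to 503 CPM in the 392 thinned nuclei with Meg3 of the AHRfl/fl library and 515 in the 1714 without. The AHRmKO sums were 185 in 213 nuclei and 152 in 816. Fibroadipogenic nuclei with Meg3 held 11235 and 6973. In satellite nuclei the sums with and without Meg3 were 2354 and 1959 in the AHRfl/fl library and 1796 and 1307 in the AHRmKO library. In myocytes they were 800 and 866 in the AHRfl/fl library and 489 and 385 in the AHRmKO library. Of the 8 markers, the non-cycling satellite cluster met 4 in the AHRfl/fl library and 5 in the AHRmKO library. The AHRmKO cycling clusters of 411 and 402 nuclei met 5 and 3, and the early myocyte cluster of that library met 3. The part of these markers in the levels of Meg3 was not tested. The summed regenerating markers were at 10256 with Meg3 and 10159 without in the AHRfl/fl library and at 12969 and 13511 in the AHRmKO library.

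Rian, the next transcript downstream, followed Meg3. It stood at 67.1, 40.0, 282 and 9.44 CPM in satellite, myocyte, regenerating and adult fibre nuclei of the AHRfl/fl library. The AHRmKO library held 45.6, 17.6, 185 and 10.2. Fibroadipogenic nuclei were again the highest, at 392 and 432. In macrophage nuclei Rian was at 6.19 and 9.67, close to the adult fibre level.

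The same nuclei held Meg3 and Rian. Among thinned regenerating nuclei of the AHRfl/fl library, 50.3% (45.2 to 55.3) of the 392 with Meg3 held Rian, against 2.22% (1.57 to 3.03) of the 1714 without. The AHRmKO shares were 46.0% (39.2 to 53.0) of 213 and 1.72% (0.94 to 2.86) of 816. Macrophage nuclei showed little such pairing, with 2.38% of 126 against 1.22% of 6210 in the AHRfl/fl library and 3.66% of 82 against 2.74% of 2301 in the AHRmKO library.

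In the class sums, the number of Rian UMIs per 100 Meg3 UMIs differed between classes. It was 47.8 (45.9 to 49.7) in regenerating nuclei of the AHRfl/fl library and 28.7 (27.5 to 29.9) in its fibroadipogenic nuclei. The AHRmKO values were 31.1 (29.0 to 33.3) and 19.5 (18.4 to 20.7). Both libraries also had 2 regenerating clusters, and the one with more Myh3 and less Myh4 held more Rian for its Meg3. In the AHRfl/fl library these clusters gave 62.5 (59.3 to 65.9) and 33.7 (31.6 to 35.9) Rian per 100 Meg3, with Myh4 at 358 and 1017 CPM. Those of the AHRmKO library gave 39.1 (35.3 to 43.2) and 25.6 (23.2 to 28.2), with Myh4 at 582 and 1761. The intervals of these ratios treat each UMI as a separate draw, while single regenerating nuclei held up to 220 and 202 Meg3 UMIs. They do not cover the spread between nuclei, so the differences between classes, clusters and libraries are a description. These ratios do not compare the abundance of the transcripts, which differ in length.

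Mirg, the most distal of the 3 transcripts, was the sparsest. The AHRfl/fl library held 8.64, 5.56, 37.4 and 0.52 CPM in satellite, myocyte, regenerating and adult fibre nuclei, the last from 1 UMI. The AHRmKO library held 19.4, 3.08, 64.8 and 3.06, the last from 6 UMIs. Regenerating nuclei were the highest myogenic class in each library, below fibroadipogenic nuclei at 62.3 and 95.7. Mirg per 100 Meg3 was 5.63 (4.51 to 6.96) in satellite nuclei of the AHRfl/fl library and 15.5 (12.9 to 18.5) in those of the AHRmKO library. In regenerating nuclei it was 6.33 (5.76 to 6.95) and 10.9 (9.76 to 12.1). The intervals of the 2 libraries overlapped in myocytes, at 8.94 (6.53 to 11.99) and 6.42 (3.68 to 10.5). They also overlapped in fibroadipogenic nuclei, at 4.56 (4.14 to 5.02) and 4.32 (3.82 to 4.87). The limit given for the intervals of Rian holds for those of Mirg.

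**Figure D1:**
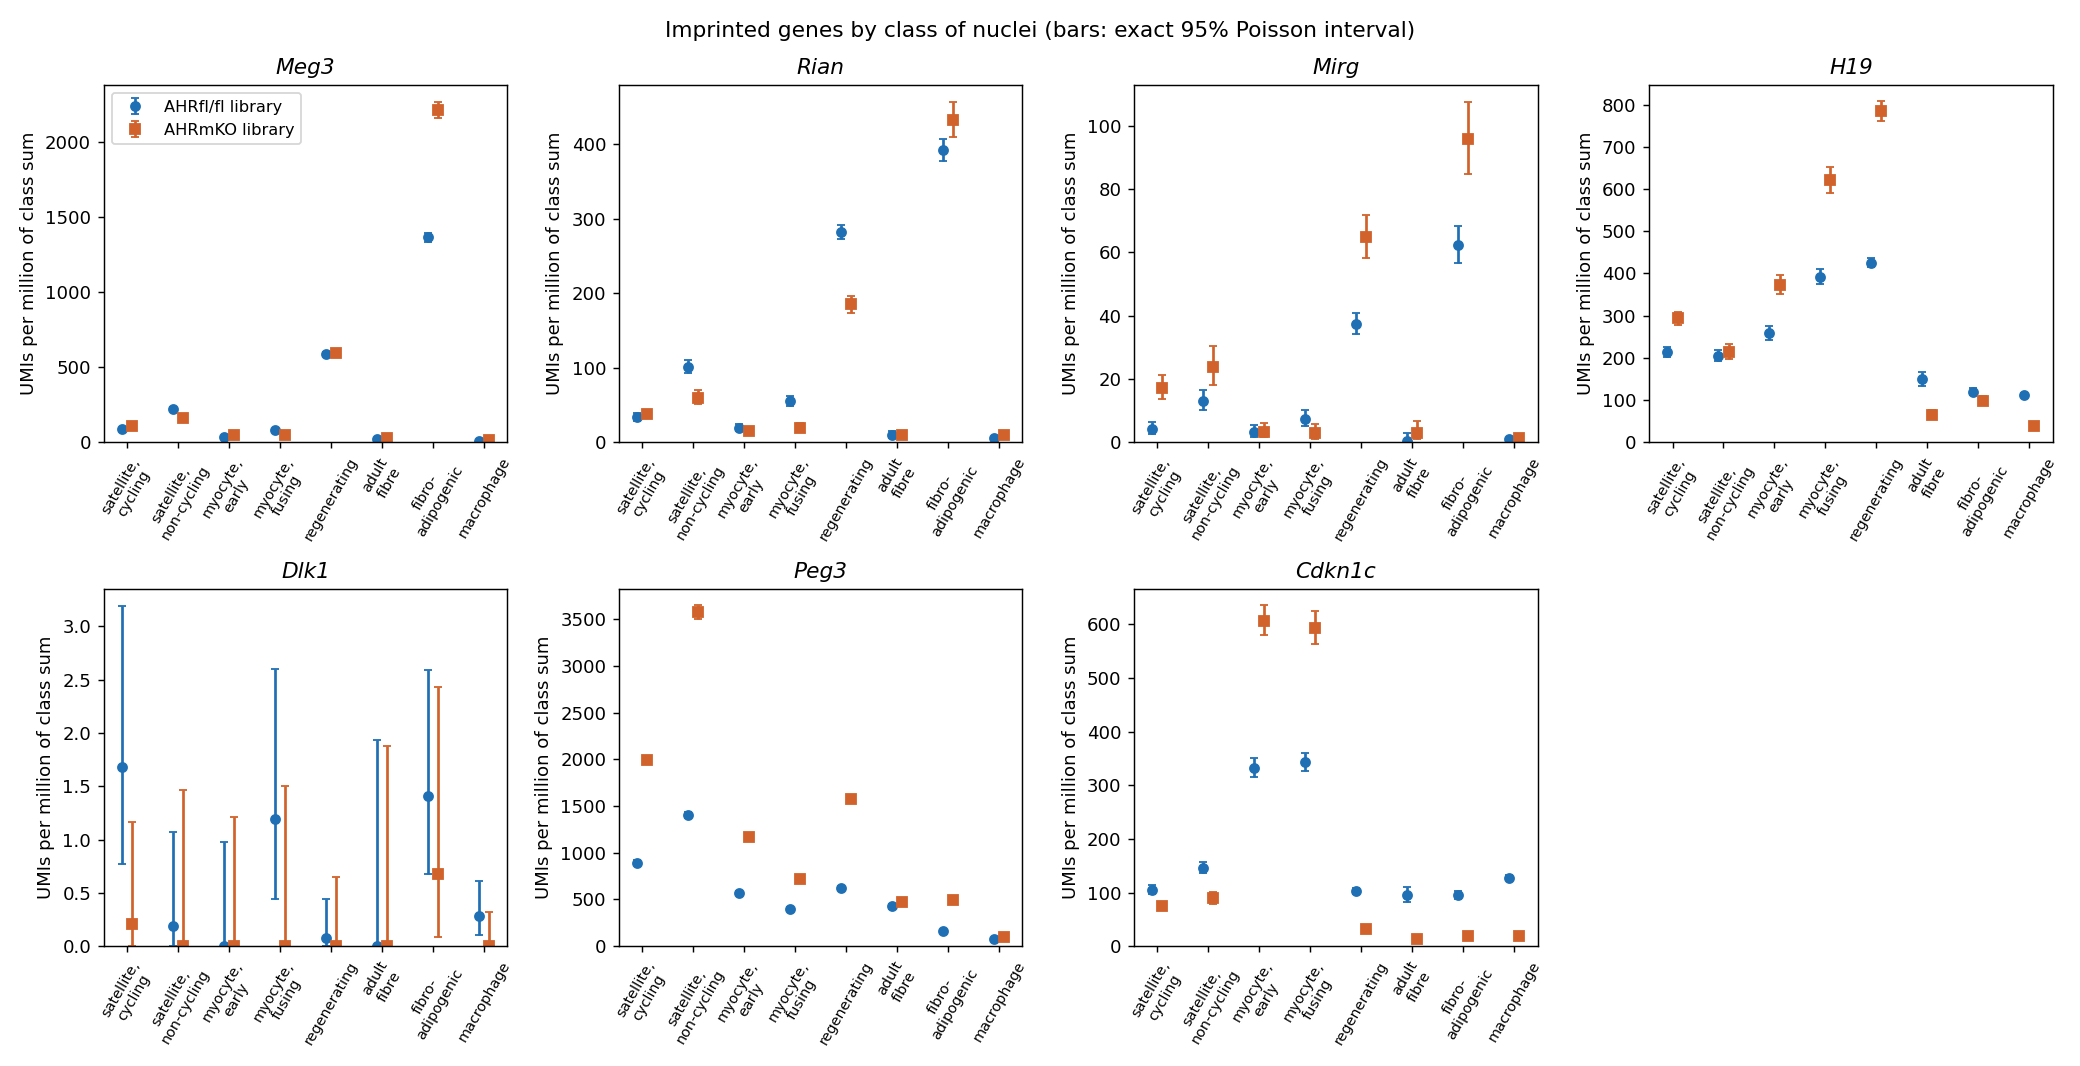
CPM for each of the 7 genes (y axis, linear, a scale of its own for each gene) in satellite, myocyte, regenerating, adult fibre, fibroadipogenic and macrophage nuclei (x axis), for the AHRfl/fl library (circles) and the AHRmKO library (squares), with exact 95% Poisson intervals. Meg3, Rian and Mirg are highest in fibroadipogenic and then regenerating nuclei, Cdkn1c in myocytes and Peg3 in satellite nuclei.

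**Figure D2:**
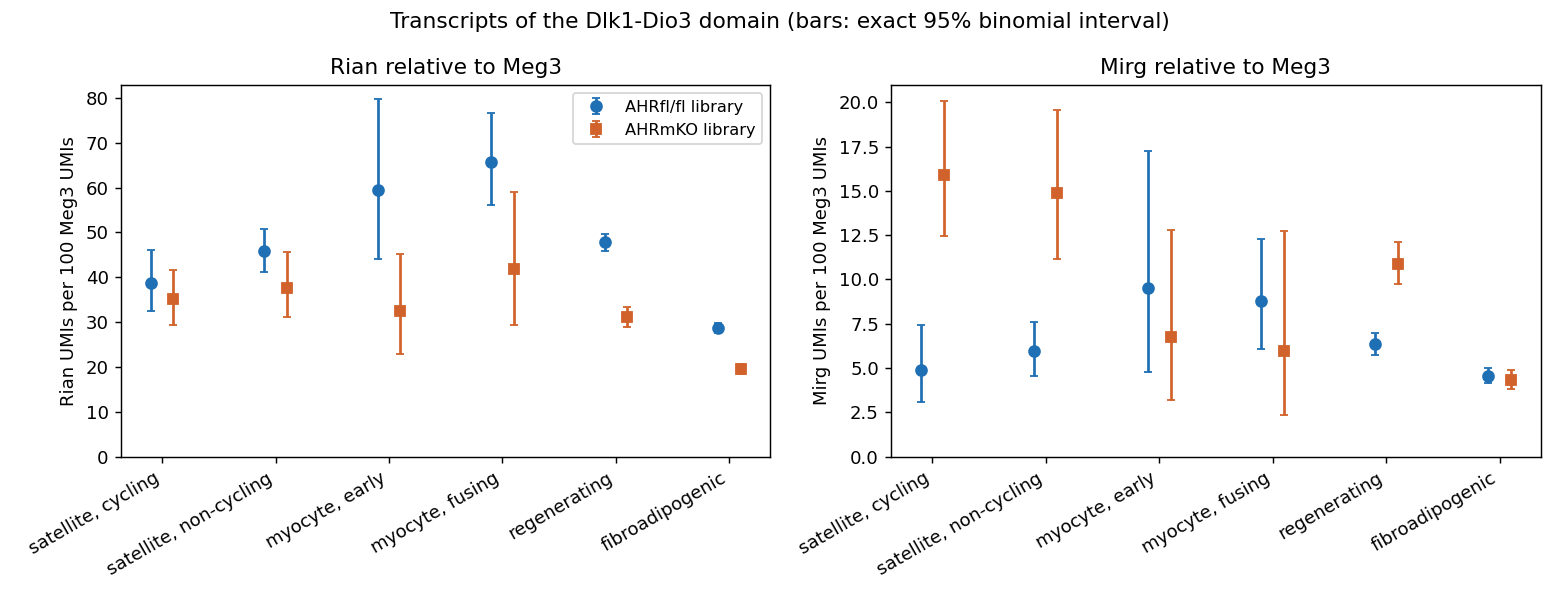
Rian UMIs (left) and Mirg UMIs (right) per 100 Meg3 UMIs (y axes) by class of nuclei (x axis) in the AHRfl/fl library (circles) and the AHRmKO library (squares), with exact 95% binomial intervals. Rian per 100 Meg3 is 47.8 and 31.1 in regenerating nuclei and 28.7 and 19.5 in fibroadipogenic nuclei. The intervals treat each UMI as a separate draw and do not cover the spread between nuclei.

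Dlk1, the paternally expressed protein-coding gene of the same domain (chr12:109452823-109463336) and a Notch-related regulator of progenitor cells, was all but undetected. All nuclei of the AHRfl/fl library held 37 UMIs, 0.52 CPM, and those of the AHRmKO library 3 UMIs, 0.08 CPM. Among the AHRfl/fl classes satellite nuclei held 10 UMIs and fibroadipogenic nuclei 10. Adult fibre nuclei held 0 in each library, which allows up to 1.57 and 1.53 CPM at a limit of 3 counts. Levels of Dlk1 could not be compared between classes at this depth.

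H19 was higher in regenerating than in satellite nuclei of both libraries, and lower in adult fibre nuclei. In the AHRfl/fl library it stood at 210 CPM in satellite nuclei, 335 in myocytes, 426 in regenerating nuclei and 149 in adult fibre nuclei. The AHRmKO levels were 266, 484, 784 and 65.3. The fusing cluster was above the early one in each library, at 392 against 259 and at 621 against 374. Macrophage nuclei held 112 and 38.5, and barcodes of 200 to under 500 UMIs, below the minimum for nuclei, held 572 and 166. The adult fibre level of the AHRfl/fl library was thus close to the macrophage level of the same library. Igf2, the paternally expressed growth factor beside H19, was likewise highest in regenerating nuclei, at 177 and 180 CPM.

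Cdkn1c encodes p57, a maternally expressed inhibitor of cyclin-dependent kinases that takes part in cell cycle exit during myogenesis. It spans chr7:143458339-143461050 on the minus strand. In the AHRmKO library it stood at 79.4 CPM in satellite nuclei, 601 in myocytes, 32.8 in regenerating nuclei and 13.8 in adult fibre nuclei. The early and fusing clusters were alike, at 607 and 594, and macrophage nuclei held 19.3. The next highest myogenic cluster of that library was the cycling one of 402 nuclei with as many myocyte as satellite markers, at 119, while the other cycling cluster held 32.7.

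In the AHRfl/fl library the same step lay over a higher floor. Myocytes held 339 CPM, with 333 in the early and 343 in the fusing cluster, against 125 in satellite, 103 in regenerating and 96.0 in adult fibre nuclei. Macrophage nuclei of that library held 127, and barcodes of 200 to under 500 UMIs held 784, against 55.8 in the AHRmKO library. Outside myocytes the AHRfl/fl levels are at or near this background and are not read as expression. The share of thinned nuclei with a UMI was 36.4% in AHRfl/fl myocytes against 22.3% in macrophages, and 43.1% against 2.6% in the AHRmKO library. Before thinning these shares were 52.4% and 32.6%, and 52.2% and 4.4%, at median depths of 4095 and 2887 UMIs and of 3684 and 3273. Gm44732 overlaps Cdkn1c on the opposite strand and is a separate row of the count tables. It held 7 UMIs over all AHRfl/fl nuclei and 1 over all AHRmKO nuclei, and the sources used here do not say if counting took the strand into account.

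Peg3, a paternally expressed zinc finger protein of progenitor cells (chr7:6703892-6730431, minus strand), was highest in satellite nuclei. The AHRfl/fl library held 1145, 472, 626 and 425 CPM in satellite, myocyte, regenerating and adult fibre nuclei. The AHRmKO library held 2540, 968, 1571 and 475. Non-cycling satellite nuclei reached 1405 and 3573, above the cycling ones at 893 and 1994, the last from 1299 and 2641 in its 2 clusters. The fusing cluster was the lowest point before the regenerating level, at 399 and 719. Macrophage nuclei held 81.4 and 95.9.

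Among the 3 adult fibre clusters of the AHRmKO library Peg3 differed widely. It stood at 114 CPM in the cluster of 182 nuclei led by Myh1, at 510 in one of 286 nuclei with the most Myh4, and at 1016 in one of 106 nuclei. The last also held the most H19 of the 3, at 195 CPM against 25.6 and 39.5. Its Meg3 level was 75.3 against 18.1 and 16.5, from 29 UMIs against 12 and 15. A single nucleus held 20 of the 29, so this Meg3 level is not read as a trait of the cluster. The cluster held 5 of 8 macrophage markers as well, and the part of that in these values was not tested. Its 10 leading genes included Trim63, Trp63 and Mlip, as did those of the single adult fibre cluster of the AHRfl/fl library.

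**Figure D3:**
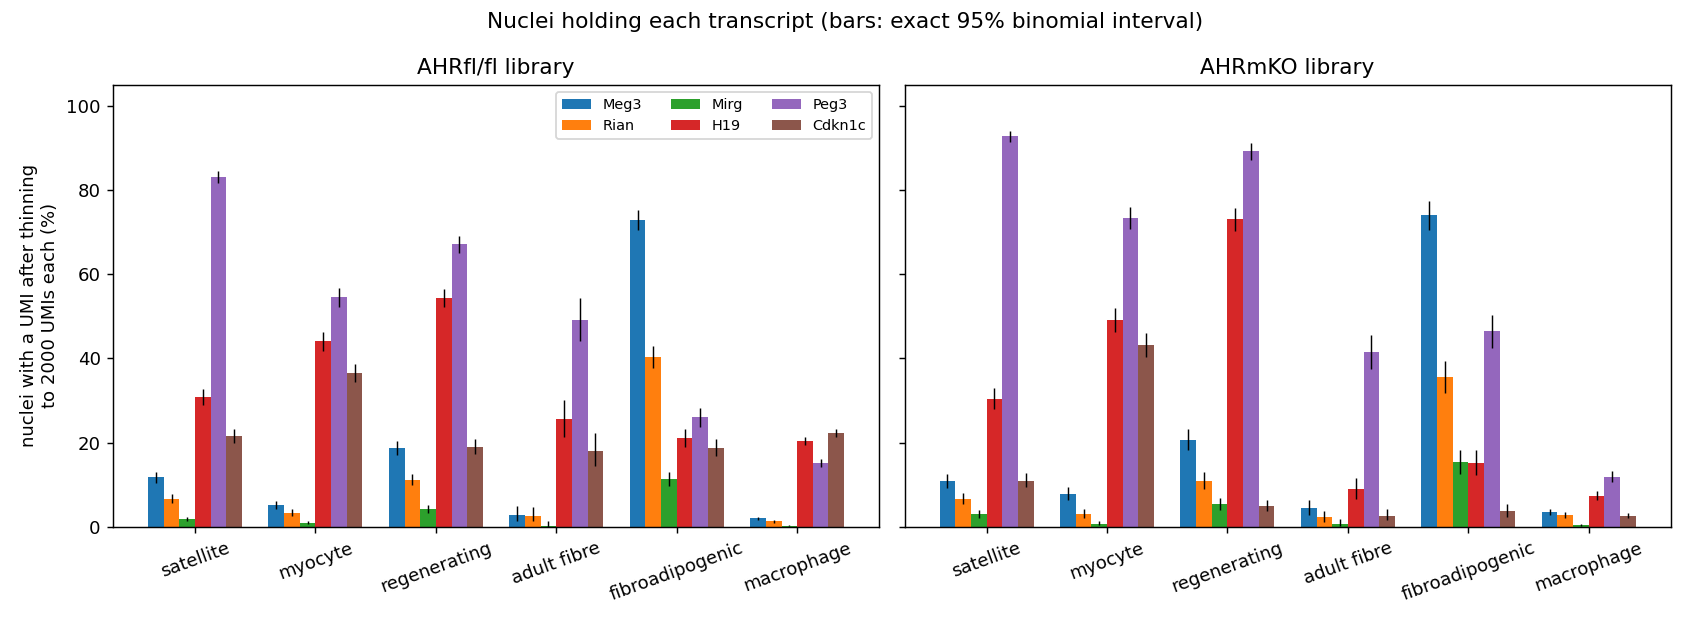
Percent of nuclei with at least 1 UMI of each gene after every nucleus was thinned to 2000 UMIs (y axis) in 6 classes of nuclei (x axis), with exact 95% binomial intervals, for the AHRfl/fl library (left) and the AHRmKO library (right). Meg3 is in 18.6% and 20.7% of regenerating nuclei, and Cdkn1c in macrophage nuclei is at 22.3% in the AHRfl/fl library and 2.6% in the AHRmKO library.

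The first comparison asked which members differed between satellite nuclei and the myocytes that form from them. A gene was called where its class sums differed by 2-fold or more in the same direction in each library, with at least 20 UMIs over both sums in each. Of the 7 members 6 could be compared, and 1 was higher and 2 were lower in myocytes. Over all 13609 genes compared, 4.63% were higher and 8.77% lower. Cdkn1c was higher, at 339 against 125 CPM in the AHRfl/fl library, and with a log2 ratio of 2.91 (2.79 to 3.05) in the AHRmKO library. The AHRfl/fl ratio of 1.43 rests on a satellite level close to background, so it is no exact size. It was 2.67 once free RNA, as read from barcodes of at most 100 UMIs, was subtracted. With a class given to each nucleus from its own markers it was 0.94, and the Cdkn1c call was lost. Peg3 was lower, at -1.28 (-1.33 to -1.23) and -1.39 (-1.44 to -1.35). With the cluster of 608 nuclei kept, Peg3 fell just short of 2-fold in the AHRfl/fl library, at -0.92, and the count was 2. In the AHRmKO library the Peg3 call was lost under 3 of 19 alternatives, at -0.11 with no mitochondrial limit and at -0.14 and -0.85 at Leiden resolutions of 0.5 and 2. Without the AHRmKO cycling cluster of 402 nuclei the count was 3, with Cdkn1c at 3.28, Peg3 at -1.68, Meg3 at -1.65, Rian at -1.63, Mirg at -2.67 and H19 at 1.03 in that library.

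Meg3 was lower in myocytes, at -1.29 (-1.44 to -1.16) and -1.37 (-1.59 to -1.19), and this ratio depended on how myocytes were drawn. In the AHRfl/fl library it changed sign under 4 of 19 alternatives, to 0.78 at a Leiden resolution of 0.5, 0.82 with a class given to each nucleus from its own markers, 1.17 at a minimum of 4000 UMIs and 1.05 with no mitochondrial limit. In the AHRmKO library it changed sign under 1 of them, to 0.83 with a class per nucleus. As whole classes, Rian was at -0.73 and -1.32 and Mirg at -0.55 and -2.32 in the AHRfl/fl and AHRmKO libraries. These ratios changed sign as well. In the AHRfl/fl library Rian did so under 5 of 19 alternatives and Mirg under 4, reaching 1.55 and 1.56 with no mitochondrial limit. In the AHRmKO library each did so under 1, to 0.49 and 0.12 with a class per nucleus. For the early myocyte cluster over non-cycling satellite nuclei all 3 transcripts were past 2-fold lower in each library, with Meg3 at -2.70 and -1.70, Rian at -2.30 and -1.87, and Mirg at -1.76 and -2.53. Satellite nuclei also held more of the fibroadipogenic markers than myocytes, as given above, and the part of that in these ratios was not tested. H19 was at 0.67 and 0.86. With free RNA subtracted by either profile the AHRfl/fl value was past 2-fold, at 1.33 and 1.11, and the AHRmKO value just short of it, at 0.98 and 0.93.

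The second comparison set regenerating nuclei against myocytes, classes that share markers as given above. Again 6 members could be compared, of which Meg3, Rian and Mirg were higher and Cdkn1c was lower, against 4.62% higher and 7.63% lower of 12980 genes. With no mitochondrial limit the AHRfl/fl log2 ratios were 0.97 for Meg3, 0.15 for Rian and 0.09 for Mirg, and Cdkn1c alone was called, and at a Leiden resolution of 0.5 the calls were Meg3 and Cdkn1c. With a class given to each nucleus from its own markers the log2 ratios were smaller in both libraries. Meg3 was then at 1.13 and 1.12, Rian at 1.14 and 1.47, Mirg at 1.13 and 1.38, and Cdkn1c at -1.05 and -1.90. In the reported classes Meg3 was 9.37-fold higher in the AHRfl/fl library and 12.1-fold in the AHRmKO library. Rian was 6.92-fold and 10.0-fold higher, and Mirg 5.86-fold and 16.1-fold. Cdkn1c was lower by a log2 ratio of -4.16 (-4.42 to -3.98) in the AHRmKO library. Its AHRfl/fl ratio of -1.70 has regenerating nuclei at background, and was -3.83 after the same subtraction. Against the fusing cluster alone, the nearest in stage, the Meg3 log2 ratios were 2.80 and 3.62. H19 and Peg3 were higher by less than 2-fold, at 0.35 and 0.41 in the AHRfl/fl library and at 0.70 each in the AHRmKO library. Against the fusing cluster Peg3 was at 0.65 (0.58 to 0.72) and 1.13 (1.05 to 1.20) and H19 at 0.12 and 0.34.

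The third comparison set adult fibre nuclei against regenerating ones. Of 6 members, 4 were lower in both libraries and 0 were higher, against 12.7% lower and 6.12% higher of 11904 genes. Meg3 was lower by -4.68 (-5.22 to -4.31) and -4.33 (-4.79 to -4.00) on the log2 scale. Rian was lower by -4.76 and -4.05, and Mirg by -4.66 (-11.46 to -3.67) and -4.02 (-5.86 to -3.27) from 1 and 6 UMIs in adult nuclei. Since adult levels of Rian are close to those of macrophage nuclei and those of Meg3 not far above them, these ratios are no exact sizes. With free RNA subtracted by the profile of 200 to under 500 UMIs Meg3 was at -5.22 and -5.96. The profile of at most 100 UMIs took the adult Meg3 level to 0 in both libraries, and 1 or the other profile took that of Rian to 0 in each library, so those ratios have no size. For Meg3 the profile of at most 100 UMIs expected 52.8 and 33.3 CPM of free RNA in nuclei. Both are above the macrophage levels given earlier, so a level of 0 is not read as absence. H19 was lower by -1.50 (-1.69 to -1.34) in the AHRfl/fl library and by -3.57 (-3.85 to -3.33) in the AHRmKO library. The first of these has a macrophage level of 112 CPM close to the adult one, and after the 2 subtractions it was -3.73 and -2.74. Peg3 was lower past 2-fold in the AHRmKO library, at -1.72, and at -0.56 in the other. With the Trim63, Trp63 and Mlip cluster alone as adult fibre in the AHRmKO library, the 4 calls stood, with Meg3 at -2.96, Rian at -3.49 and H19 at -2.00, and Peg3 was at -0.63. With a class given to each nucleus from its own markers no member was called here, and Meg3 stood at -0.31 and -0.58.

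**Figure D4:**
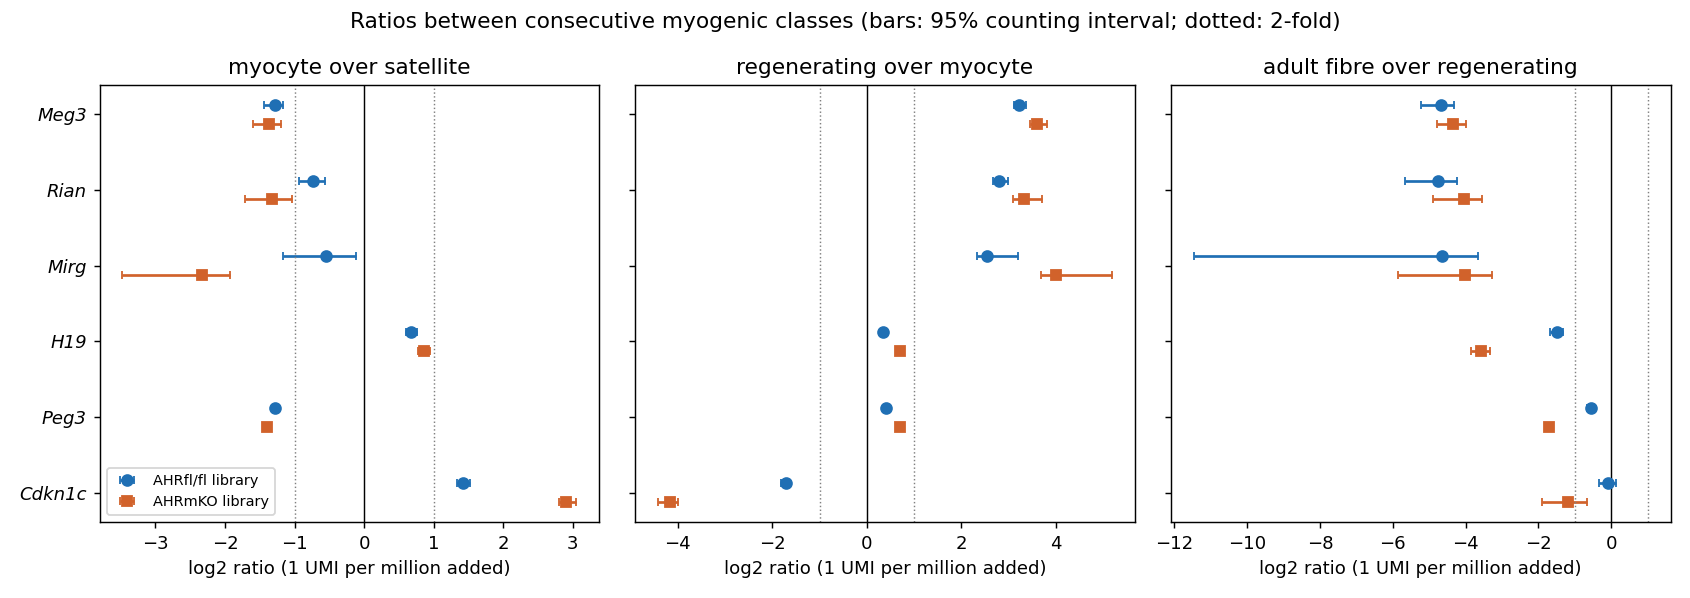
Log2 ratios between consecutive myogenic classes (x axes, 1 CPM added) for the 6 members with enough UMIs (y axis), in the AHRfl/fl library (circles) and the AHRmKO library (squares), with 95% counting intervals and dotted lines at 2-fold. Meg3, Rian and Mirg lie past 2-fold to the right for regenerating over myocyte and past it to the left for adult fibre over regenerating.

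The fourth comparison set the library labelled AHRmKO against the one labelled AHRfl/fl within each class. Genotype, animal and library cannot be told apart here. In satellite nuclei Peg3 was higher in the AHRmKO library, at a log2 ratio of 1.15 (1.12 to 1.18), and Mirg at 1.08 (0.78 to 1.57), where 5.06% of all genes were higher and 15.0% lower. By state, Peg3 was at 1.16 in cycling and 1.35 in non-cycling nuclei, and Mirg at 1.78 (1.31 to 2.73) and 0.81 (0.33 to 1.38), so that Mirg passed 2-fold in cycling nuclei alone. The cycling ones were 813 of 1412 satellite nuclei in the AHRmKO library and 985 of 2389 in the other. Peg3 stayed past 2-fold under 17 of 19 alternatives and reached down to 0.80 at a Leiden resolution of 0.5. Mirg stayed past 2-fold under 11 of 19 alternatives and reached down to 0.47 at a minimum of 1000 UMIs. With the cluster of 608 nuclei kept it was at 0.64, and 4 members rather than 5 were past 2-fold in any class. These counts include Rian, H19 and Cdkn1c, with the limits given below. The shares of all genes are given per class, so they cannot be set beside a count over any class, and nothing is concluded from it. Without the AHRmKO cycling cluster of 402 nuclei Peg3 was at 1.44, Mirg at 1.43, and the Cdkn1c sums passed 2-fold, at -1.02 against -0.65 with it. The AHRfl/fl satellite level of Cdkn1c is close to that of macrophages, and its ratio with the cluster kept was 0.26 with the profile of at most 100 UMIs subtracted, so this is not read as lower expression.

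In regenerating nuclei Peg3 was higher in the AHRmKO library, at 1.33 (1.28 to 1.37), against 5.19% higher and 16.3% lower of all genes. The summed Cdkn1c counts were lower past 2-fold in regenerating nuclei, at -1.63, and in adult fibre nuclei, at -2.71. In both classes the AHRfl/fl level lay below that of its macrophage nuclei, so neither value is read as lower expression. In adult fibre nuclei H19 was lower at -1.18 (-1.51 to -0.89), against 18.5% of genes lower and 9.09% higher, with an AHRfl/fl level of 149 CPM beside 112 in macrophages. In the other classes H19 was higher in the AHRmKO library by less than 2-fold, at 0.34 in satellite nuclei, 0.53 in myocytes and 0.88 (0.82 to 0.94) in regenerating nuclei. After the 2 subtractions these were 1.19 and 1.12, 0.84 and 0.95, and 1.07 and 1.21. The adult fibre class was made of different clusters. In the AHRfl/fl library it was the single cluster of 388 nuclei led by Trp63, Mlip and Trim63, and in the AHRmKO library 182 and 286 of its nuclei lay in clusters without Trp63 and Trim63 among their 10 leading genes. Against the matching AHRmKO cluster of 106 nuclei alone H19 was not lower, at 195 CPM against 149 and a log2 ratio of 0.38. Peg3 was higher there, at 1.25. Meg3 was at 1.73, but from 29 UMIs of which 1 nucleus held 20, so it is not read as a difference between the clusters. Cdkn1c stood at 28.6 CPM against 96.0, the latter at background.

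Macrophage nuclei also differed between the libraries, with Cdkn1c at 127 and 19.3 CPM and H19 at 112 and 38.5 in the AHRfl/fl and AHRmKO libraries. With free RNA subtracted by the profile of barcodes of at most 100 UMIs, Cdkn1c was at -1.11 in regenerating nuclei, its AHRmKO level in adult fibre nuclei became 0, and H19 was at -0.27 in adult fibre nuclei. The profile of barcodes of 200 to under 500 UMIs took the AHRfl/fl level of Cdkn1c to 0 in both classes, so that no direction can be read from it, and it left H19 at -0.37.

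In myocytes the whole class gave Peg3 as higher, at 1.03, and Rian as lower, at -1.14, against 5.43% higher and 14.5% lower of all genes. In the early cluster Peg3 was at 1.04 (0.96 to 1.12), Rian at -0.31 (-0.89 to 0.21) and Cdkn1c at 0.87 (0.76 to 0.97). The early clusters were not alike either. That of the AHRfl/fl library met 5 of 8 myocyte and 2 of 8 regenerating markers, and that of the AHRmKO library met 8 and 7. Myog stood at 162 and 93.4 CPM in them. Macrophage clusters held Myog at 80.9 to 109 CPM in the AHRfl/fl library and at 6.61 to 16.1 in the AHRmKO library. Which early cluster held more Myog above this background was not settled. The part of these cluster differences in the early values was not tested. The fusing clusters differed in their leading markers, as given above, and their values of 0.85 for Peg3, -1.43 for Rian and 0.79 for Cdkn1c are not read as a difference between like nuclei. The lower Rian value of the whole class rests on them. For Cdkn1c the whole class gave 0.83, and 0.95 and 1.55 after the 2 subtractions of free RNA, so its size depended on the background. Meg3 in regenerating nuclei was at 0.01 (-0.05 to 0.07). That interval treats each UMI as a separate draw, while a minority of nuclei carried the signal, so it cannot exclude a difference between the libraries.

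Neighbours of the members in the genome were counted from lists of imprinted genes. Rtl1, the paternally expressed gene read in the opposite direction within the Dlk1-Dio3 domain, was the only other gene of that list with 20 or more CPM in a myogenic class. It stood at 6.65, 3.29, 26.5 and 0 CPM in satellite, myocyte, regenerating and adult fibre nuclei of the AHRfl/fl library, and at 0.68, 0.18, 0.53 and 0 in the AHRmKO library. Its levels in the AHRmKO library rest on 5, 1, 3 and 0 UMIs, against 70, 29, 333 and 0.

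In the Peg3 domain, 3 of 4 listed genes were in the count tables and 2 had enough UMIs. Zim1 and Usp29, which flank Peg3, were both lower in myocytes than in satellite nuclei, beside 8.77% of all genes. The log2 ratios were -1.85 in each library for Zim1 and -1.50 and -1.31 for Usp29, and the list medians of -1.68 and -1.58 stood beside -0.17 and -0.16 over all genes. Both were also lower in adult fibre than in regenerating nuclei, beside 12.7% of all genes, at -1.22 and -2.73 for Zim1 and -1.85 and -3.01 for Usp29. Between libraries in regenerating nuclei they parted, with Zim1 at 1.07 and Usp29 at -1.13.

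In the distal chromosome 7 domain, which holds H19, Cdkn1c and 12 other listed genes, Kcnq1 and its antisense Kcnq1ot1 were higher in myocytes among 8 compared and 0 were lower, beside 4.63% and 8.77% of all genes. Kcnq1ot1, the paternally expressed noncoding RNA that silences a part of this domain in cis, stood at 705 and 1651 CPM in satellite and myocyte nuclei of the AHRfl/fl library and at 657 and 1406 in the AHRmKO library. The list medians were 0.76 and 0.94, beside -0.17 and -0.16 over all genes. Of 9 compared, Igf2 and Ins2 were higher and Kcnq1 was lower in regenerating nuclei than in myocytes, beside 4.62% higher and 7.63% lower of all genes. The list medians there were 0.14 and 0.20, beside -0.32 and -0.40. Igf2, Ins2, Tspan32 and Tssc4 of 9 were lower in adult fibre than in regenerating nuclei, beside 12.7% of all genes, with list medians of -1.04 and -1.97 beside -0.02 and -0.12. Kcnq1, Ins2 and Tspan32 lie outside the rule for named genes and were named after their values were seen.

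Of 16 imprinted genes elsewhere in the genome, 12 could be compared. In myocytes Snrpn and Zdbf2 were higher and Plagl1 and Sgce lower than in satellite nuclei, beside 4.63% higher and 8.77% lower of all genes, with list medians of -0.10 and -0.19 beside -0.17 and -0.16 over all genes. In adult fibre nuclei 6 were lower than in regenerating ones and 0 higher, namely Grb10, Gnas, Sgce, Peg10, Snrpn and Zdbf2, beside 12.7% lower and 6.12% higher of all genes, with list medians of -1.17 and -1.71 beside -0.02 and -0.12 over all genes. Zdbf2 stood at 369 CPM in regenerating and 47.7 in adult fibre nuclei of the AHRfl/fl library, and at 834 and 24.0 in the AHRmKO library. Plagl1, Sgce, Peg10 and Snrpn were named after their values were seen.

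Of the 6 other inhibitors of cyclin-dependent kinases, Cdkn1a was higher in myocytes and 4 were lower, beside 4.63% higher and 8.77% lower of all genes. The list medians were -1.29 and -1.42, beside -0.17 and -0.16 over all genes. Cdkn1a, which encodes p21, stood at 83.4 and 168 CPM in satellite and myocyte nuclei of the AHRfl/fl library and at 56.8 and 143 in the AHRmKO library. The 4 were Cdkn1b, Cdkn2a, Cdkn2b and Cdkn2c, of which Cdkn2a was named after its values were seen. Cdkn1a differed less than Cdkn1c between regenerating nuclei and myocytes, at -0.68 and -0.58, and the difference between the 2 genes was not tested.

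**Figure D5:**
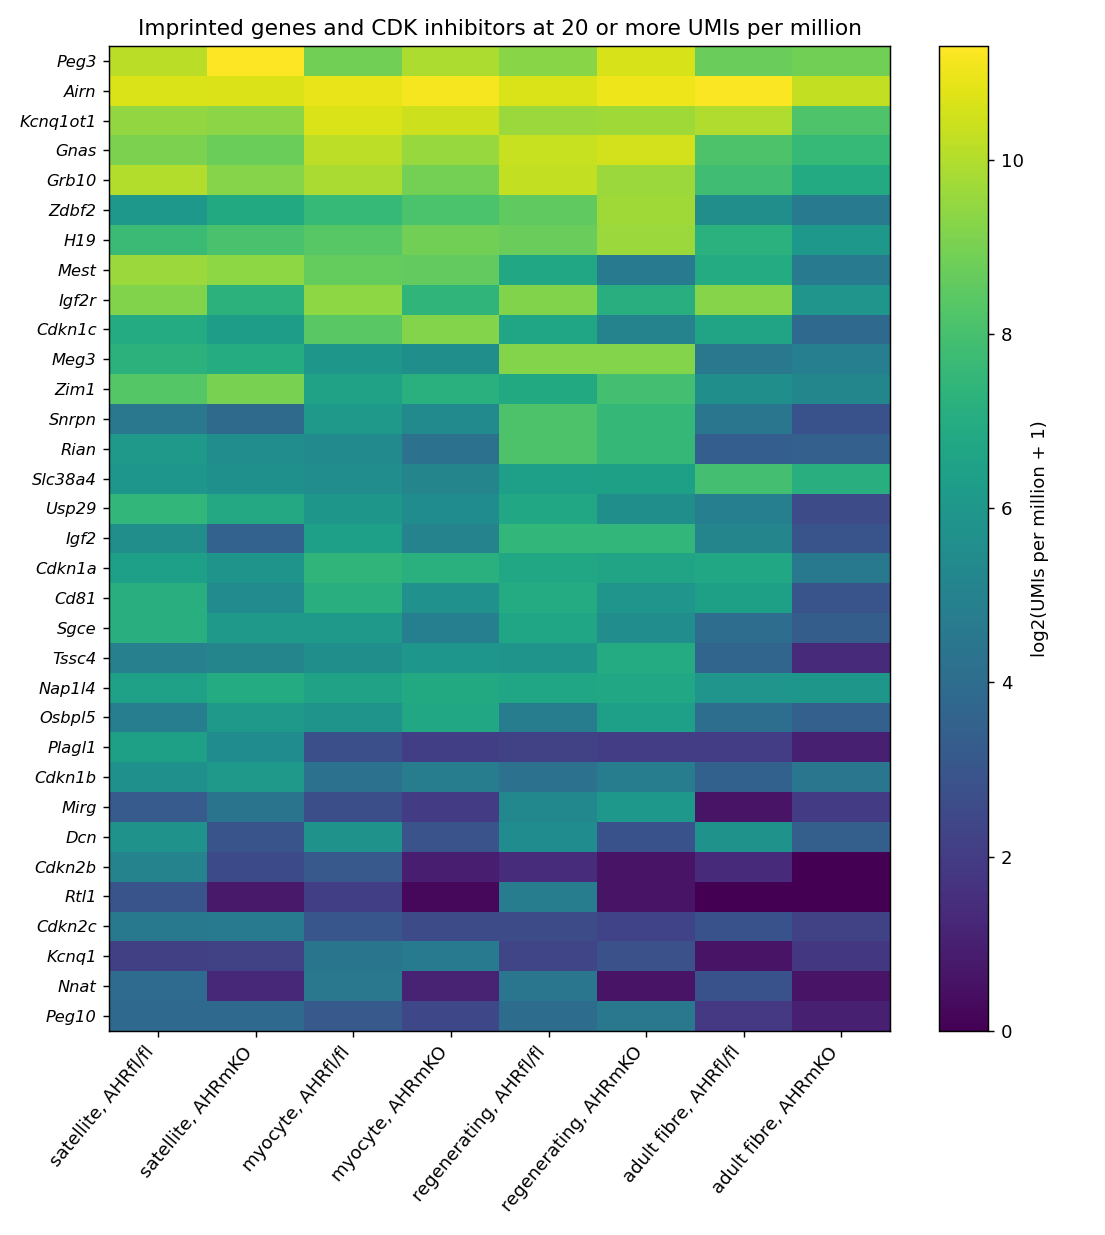
Log2(CPM + 1), as colour, of the members and listed imprinted genes and inhibitors of cyclin-dependent kinases that reached 20 CPM (rows) in the 4 myogenic classes of each library (columns). Rows are ordered by their highest level, which is not a comparison between genes since lengths differ. Columns are ordered by class and then by library. Meg3, Rian, Mirg and H19 are darker in the adult fibre column than in the regenerating column of the same library.

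Likeness of pattern was measured as the Pearson correlation of log2(CPM + 1) over 13 profiles of class and library with 200 or more nuclei, among 7979 genes. These profiles share libraries and free RNA, and the values are a description. The 3 genes most like Meg3 were Rian at 0.99, B830012L14Rik at 0.97 and Mirg at 0.97. For Peg3 they were Zim1 at 0.96, Prmt7 at 0.94 and Catsper2 at 0.91. For H19 they were Vash2 at 0.96, Mtss2 at 0.95 and Psmg2 at 0.95, and the 2 given for Cdkn1c were Cct5 at 0.94 and Tomm20 at 0.91. Among the members themselves, Meg3 correlated with H19 at 0.36, with Peg3 at 0.40 and with Cdkn1c at -0.19, and H19 with Peg3 at 0.71.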

How the data were processed

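The authors deposited raw counts of UMIs per gene and barcode for each library, without selected nuclei. Per the submitters' processing notes, Cell Ranger 7.0.1 and mm10 were used, while the headers of the deposited count matrices name Cell Ranger 4, and which of them made the counts was not settled here; the use of intronic reads and of strand is not given in the sources used here. Barcodes of 2000 or more UMIs were kept, with a mitochondrial share of at most 5% (AHRfl/fl) and 8.97% (AHRmKO), and Scrublet scores removed 1022 and 232 as doublets. Nuclei were clustered per library (scanpy 1.11.5; 2000 variable genes, 30 components, 15 neighbours, Leiden resolution 1). A cluster needed 3 markers at 2-fold over the median of the others (5 of 8 for myogenic classes other than non-cycling satellite nuclei). Members and lists were chosen with earlier results of these data known, and naming rules were set after cluster profiles, which showed the members' levels, had been seen. The limit on a cluster's median UMIs was first 2 times the library median and was lowered to 1.75 after the results had been seen; this raised 2 of the 4 counts of members. Class sums gave CPM (UMIs per 1000000), with 1 CPM added for log2 ratios. Of listed genes, the 4 highest at 20 or more CPM were named. The share of free RNA was estimated from 16 fibre genes in macrophages. Ratios were tested on simulated data, and 19 alternatives were run. 1 gene of the likeness comparison is not reported here.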

Additional observations from a re-analysis of the deposited data

Results flagged for a closer look

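Meg3 in barcodes of 200 to under 500 UMIs, which enter no class of nuclei, stood at 119 CPM (116 to 122) in the AHRmKO library against 40.5 (38.4 to 42.8) in the AHRfl/fl library. It was singled out because this signal lies outside the nuclei that were compared and was over 2-fold above that of the AHRfl/fl library. The nuclei of 2000 or more UMIs held 317 and 289 CPM.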

How the results depend on the processing

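Counts of members past 2-fold in both libraries were recomputed under 19 alternatives. Of these, 3 were chosen after seeing the data: keeping the clusters of high median UMIs, leaving out the AHRmKO cycling cluster with as many myocyte as satellite markers, and taking the adult fibre clusters led by Trim63, Trp63 and Mlip alone. Myocyte against satellite, with 3 members, gave 5 with both libraries clustered together, 5 with free RNA subtracted by the profile of at most 100 UMIs, and 1 at a Leiden resolution of 0.5, with a class per nucleus and with no mitochondrial limit. Regenerating against myocyte, with 4, gave 2 at a resolution of 0.5 and 1 with no mitochondrial limit. Adult against regenerating, with 4, gave 0 with a class per nucleus. Between libraries, with 5 members past 2-fold in any class, the count was 3 with each nucleus weighted equally and 3 with 10 CPM added. This count has no share of all genes beside it and includes Rian, H19 and Cdkn1c, with the limits given above. With the clusters of high median UMIs kept the 4 counts were 2, 4, 4 and 4. Under each of the other added alternatives they were 3, 4, 4 and 5. With the Trim63, Trp63 and Mlip clusters alone, those 5 hold Meg3 in place of H19, which was at 0.38 in adult fibre nuclei. That Meg3 value has the limit of a single nucleus given above. The cause of these changes was not tested.

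Of 1091 recomputed log2 ratios of single members, 654 lay within the counting interval of the reported value. In all 51 took the other sign or fell to 0, of which 40 were of ratios reported under 2-fold and 11 of ratios reported past it. The 11 were these. Meg3 in AHRfl/fl myocytes over satellite nuclei became 0.78 at resolution 0.5, 0.82 with a class per nucleus, 1.17 at a minimum of 4000 UMIs and 1.05 with no mitochondrial limit. With a class per nucleus, the AHRmKO ratios of Meg3, Rian and Mirg became 0.83, 0.49 and 0.12. Rian between libraries in myocytes became 0.21 at a minimum of 1000 UMIs. H19 between libraries in adult fibre nuclei became 0.38 with the Trim63, Trp63 and Mlip clusters alone. Cdkn1c between libraries became 4.86 in regenerating and 2.63 in adult fibre nuclei with the profile of 200 to under 500 UMIs subtracted, where the AHRfl/fl level was set to 0 by the subtraction and the ratio comes from the 1 CPM added. At a minimum of 1000 UMIs no AHRmKO cluster met the rule for regenerating nuclei, so comparisons that need it could not be given. No paired analysis was possible because each group is 1 library.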

Other observations

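Outside the myogenic classes, adipocyte nuclei held Meg3 at 112 and 101 CPM in the AHRfl/fl and AHRmKO libraries, from 94 and 43 UMIs. Endothelial nuclei held 14.5 and 13.6, near the macrophage level. Peg3 in fibroadipogenic nuclei was 166 in the AHRfl/fl library and 489 in the AHRmKO library, both above the macrophage levels of 81.4 and 95.9. A cluster of 158 AHRfl/fl nuclei that stayed unnamed, with markers of several classes, held H19 at 584 and Cdkn1c at 483 CPM.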
